A study of Mus musculus with 4 samples.

Results

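The 10 alpha, beta and gamma crystallin genes *Cryaa*, *Cryab*, *Cryba1*, *Cryba2*, *Cryba4*, *Crybb1*, *Crybb2*, *Crybb3*, *Crygs* and *Crygd* were taken by symbol from the 22095 loci of the RNA-seq table, and each was listed once, with a successful estimate in all 4 libraries. They hold 2 alpha, 6 beta and 2 gamma genes. The libraries were made from polyA RNA of whole retinas of mice aged 3 weeks, 2 libraries from *rd7* mice, which carry a mutation in the rod transcription factor gene *Nr2e3*, and 2 from wild-type mice. The strain is given as C57BL/6J for all 4 libraries, and no other allele or treatment is named. Each library pooled 8 retinas of 2 females and 2 males, and p-values therefore measure the variation among pools of animals. Values are FPKM, that is, fragments scaled to transcript length and to the mapped total of the library, so that levels of different genes can be compared per length. In RNA of whole tissue, fewer cells of a type and less RNA per cell cannot be told apart.

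Crystallins are the main soluble proteins of the vertebrate lens, where fibre cells make them in great amounts and keep them for life. Alpha crystallins belong to the family of small heat shock proteins and act as chaperones. *Cryaa* is made above all in the lens, while *Cryab* is made in the lens and in many other tissues, glia and muscle among them. Beta and gamma crystallins form a separate family with a common fold, and in the mouse their transcripts are also known from the retina. Retinal RNA can thus hold crystallin transcripts of the retina itself and transcripts carried over with lens tissue at dissection, and the files give no label that separates them.

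Sequences before the start of transcription are shown for 4 members, chosen because they hold the letters TGCTGAC, an extended half-site of the large Maf factors that activate crystallin genes in the lens. RefSeq promoters, built on GRCm38.p6, were given for 9 of the 10 members, all except *Cryab*. The 200 bases before the start were matched to 1 place each in mm9, the build of the expression table, and coordinates are those of mm9. Capitals mark TGCTGA on either strand.
*Cryaa*, chr17:31814676-31814875, plus strand: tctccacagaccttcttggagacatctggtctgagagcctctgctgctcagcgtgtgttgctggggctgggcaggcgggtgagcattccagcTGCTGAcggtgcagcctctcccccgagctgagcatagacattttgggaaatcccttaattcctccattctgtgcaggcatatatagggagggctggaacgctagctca
*Cryba1*, chr11:77538796-77538995, minus strand: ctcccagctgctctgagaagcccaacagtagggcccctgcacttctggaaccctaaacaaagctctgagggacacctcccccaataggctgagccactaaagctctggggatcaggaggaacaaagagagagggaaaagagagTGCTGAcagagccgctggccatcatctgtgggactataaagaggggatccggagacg
*Cryba4*, chr5:112681539-112681738, minus strand: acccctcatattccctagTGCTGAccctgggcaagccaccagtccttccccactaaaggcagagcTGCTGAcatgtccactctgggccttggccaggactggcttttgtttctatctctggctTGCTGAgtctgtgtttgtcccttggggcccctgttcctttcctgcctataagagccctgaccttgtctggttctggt
*Crybb1*, chr5:112684640-112684839, plus strand: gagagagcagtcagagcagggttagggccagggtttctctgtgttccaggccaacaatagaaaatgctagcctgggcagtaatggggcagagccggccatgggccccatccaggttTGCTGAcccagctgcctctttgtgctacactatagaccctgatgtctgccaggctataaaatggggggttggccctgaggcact
In windows from 250 bases before to 50 bases after the start, TGCTGA lay on either strand in 7 of 9 members (*Cryaa*, *Cryba1*, *Cryba2*, *Cryba4*, *Crybb1*, *Crybb3* and *Crygs*), beside 19.5% of 32851 promoters in the table. TGCTGAC, which contains it, lay in the 4 members shown and in 4.67% of all promoters. TATAAA, the letters of a TATA box, lay in 4 of 9 members and 13.6% of promoters. The match began at -23 in *Cryba1*, -30 in *Crybb1* and -25 in *Crygs*, but at -3 in *Cryba2*, where it spans the start. GAANNTTC, the core of a heat shock element, lay in 0 of 9 and 7.86%, and AAGTCA, a half-site to which Nr2e3 binds, in 1 of 9 (*Crybb3*) and 15.1%. TAATCC, a site of the photoreceptor factor Crx, lay in 1 of 9 (*Crygs*) and 7.06%. These matches describe letters and show no binding.

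The gamma crystallin genes of chromosome 1 are close copies, which bears on the values of *Crygd*. The coding sequence of *Crygd* was 91.6% identical to that of *Cryge*, 90.7% to *Crygf*, 83.8% to *Cryga* and 59.4% to *Crygs*. Of the 564 windows of 50 bases, the read length, in its transcript, 192 were found letter for letter in transcripts of *Cryga*, *Cryge* or *Crygf*. The stretch below, given to show this, is the same in *Cryga*, *Crygd*, *Cryge* and *Crygf* and lies in *Crygd* at chr1:65109667-65109723 of mm9 on the minus strand, in the coding part.
*Crygd*, shared with *Cryga*, *Cryge* and *Crygf*: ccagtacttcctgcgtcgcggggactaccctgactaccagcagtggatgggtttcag
A read from it could be counted for any of the 4 genes, so the level of *Crygd* is uncertain. In the other 9 members, 0 windows were found in a transcript of another gene.

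Of the 22095 loci, 262 had an estimate without success in at least 1 library, and 12655 of the others had a mean FPKM of at least 1 and entered the test, all 10 members among them. The reads per library, estimated from the FPKM that a single read gives, numbered between 3.49e+07 and 3.55e+07. *Nr2e3* had an FPKM of 2493 and 1589 in *rd7* and of 385 and 394 in wild-type libraries, so its level set the genotypes apart, although a value for the whole locus does not show the mutation itself. The summed FPKM of 8 rod markers lay between 12644 and 16723 per library, so that all 4 libraries carried the RNA of retina in bulk. Between replicates, the median absolute difference over all genes tested was 0.06 in wild-type and 0.10 in *rd7* on the log2(FPKM + 0.1) scale.

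The alpha crystallins were the most abundant members, and the pair differed in how stable their levels were. *Cryab* (chr9:50560863-50564738) had an FPKM of 23.2 and 26.7 in *rd7* replicates 1 and 2 and of 24.5 and 27.6 in wild-type replicates 1 and 2. All 4 values of this chaperone lay close together, and those of the genotypes overlapped. *Cryaa* (chr17:31814890-31818669), the alpha crystallin made above all in the lens, had an FPKM of 7.53 and 17.7 in *rd7* and of 13.7 and 30.3 in wild-type libraries. Its genotypes also overlapped, and wild-type replicate 2 held 4.03 times the level of *rd7* replicate 1. In the same order, the ratio of *Cryaa* to *Cryab* was 0.325, 0.661, 0.559 and 1.10, so that *Cryaa* passed *Cryab* in wild-type replicate 2 alone.

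The 6 beta crystallins, structural proteins that associate in the lens as dimers and larger oligomers, were lower than the alpha pair in every library. *Cryba1* (chr11:77532234-77538795) had an FPKM of 3.59 and 8.19 in *rd7* and of 5.67 and 13.1 in wild-type libraries. *Crybb2* (chr5:113487285-113497786) had 2.47 and 6.57 in *rd7* and 5.30 and 12.9 in wild-type. In both genes, the libraries stood in the order of *Cryaa*, with wild-type replicate 2 on top and *rd7* replicate 1 at the bottom. *Cryba2* (chr1:74936518-74939709) had 1.22 and 3.04 in *rd7* and 2.39 and 5.16 in wild-type. *Cryba4* (chr5:112675553-112681522) had 0.910 and 2.91 in *rd7* and 2.55 and 4.61 in wild-type, the largest ratio of the beta genes between *rd7* libraries. Its neighbour *Crybb1*, which starts 3319 bases away on the other strand, at chr5:112684841-112698602, had 1.71 and 2.73 in *rd7* and 1.95 and 4.23 in wild-type. *Crybb3* (chr5:113504860-113510604) had 3.79 and 4.66 in *rd7* and 4.08 and 8.83 in wild-type libraries. It differed from the others in that 3 of its values lay close together, below wild-type replicate 2. The genotypes overlapped in all 6 genes.

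The gamma members had the same highest and lowest libraries. *Crygs* (chr16:22805277-22811483), the gamma crystallin kept in the adult lens, had an FPKM of 1.86 and 4.27 in *rd7* and of 4.39 and 8.31 in wild-type libraries. It was the 1 member of 10 whose *rd7* values both lay below both wild-type values, which held for 19.5% of all genes tested (the opposite order held for 57.1% of them and for 0 members). *Crygd* (chr1:65108412-65110014) had 3.51 and 6.35 in *rd7* and 5.29 and 15.4 in wild-type. The gap between its *rd7* replicate 2 and wild-type replicate 1 was small beside the gap between the wild-type libraries.

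**Figure D1:**
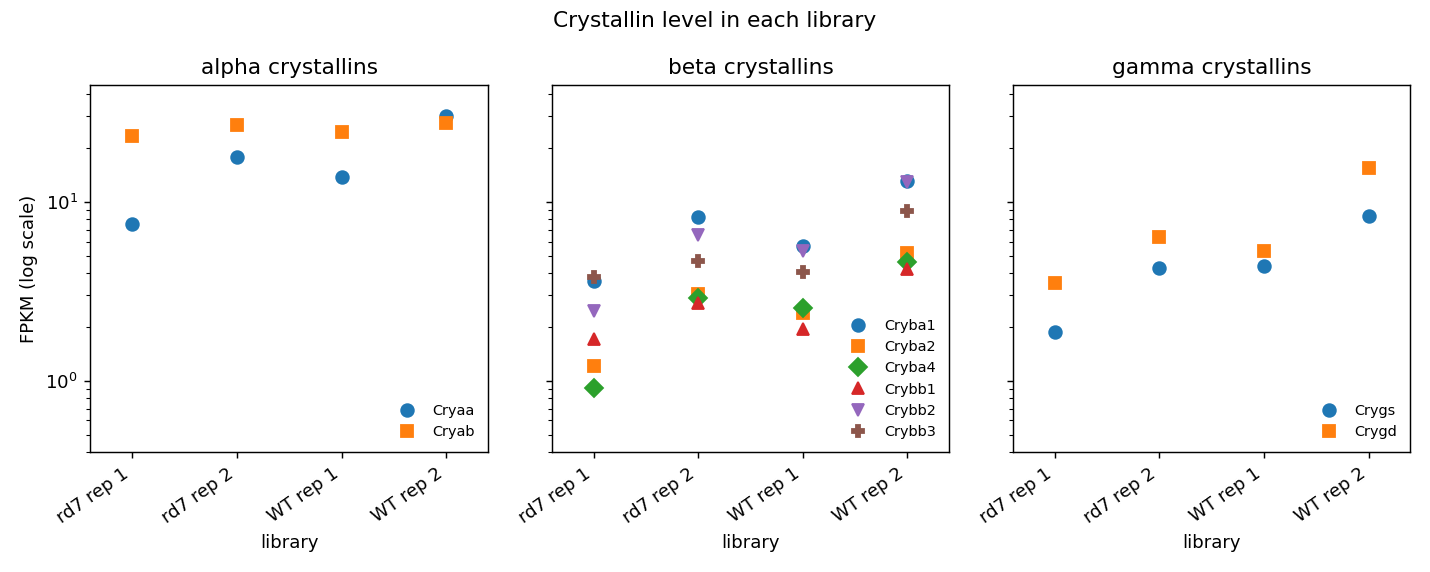
FPKM (log axis) of the 2 alpha, 6 beta and 2 gamma members in each of the 4 libraries, 1 point per gene and library. Every member is lowest in *rd7* replicate 1 and highest in wild-type replicate 2, and *Cryab* has the narrowest range, from 23.2 to 27.6.

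Ordered by the mean of the 4 libraries, the levels were those of *Cryab* (25.5 FPKM), *Cryaa* (17.3), *Crygd* (7.65), *Cryba1* (7.65), *Crybb2* (6.80), *Crybb3* (5.34), *Crygs* (4.71), *Cryba2* (2.95), *Cryba4* (2.75) and *Crybb1* (2.65). The ranges over libraries of all 9 neighbouring pairs overlapped. Within each library the alpha pair held the highest 2 places, and *Crybb1* was the lowest gene in 3 of the 4. From the same estimate, the values of *Cryab* rested on 974 to 1159 reads, those of *Cryaa* on 317 to 1277 and those of the beta and gamma members on 26 to 414. Counting error alone is then 19.6% of the lowest value, that of *Cryba4* in *rd7* replicate 1, and 2.80% of the highest, that of *Cryaa* in wild-type replicate 2.

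The difference between replicates was the leading feature of 9 of the 10 members. Wild-type replicate 2 held between 1.80 and 2.92 times the FPKM of wild-type replicate 1 in the beta and gamma genes and 2.21 times in *Cryaa*. The ratio of *rd7* replicate 2 to *rd7* replicate 1 was between 1.23 (*Crybb3*) and 3.20 (*Cryba4*), with a median of 2.29 over the 8 beta and gamma genes, and 2.35 in *Cryaa*. The ratios of *Cryab* were 1.12 and 1.15, and the medians over all genes tested were 1.02 and 0.994. Replicate 2 exceeded replicate 1 by 1.5 times or more, a ratio chosen after the values were seen, in wild-type in 9 members and 0.482% of all genes tested, and in *rd7* in 8 members and 1.23% of all genes. In both genotypes at once it did so in 8 members, *Cryab* and *Crybb3* being the others, and in 0.158% of all genes tested. These were 20 genes, of which 3 were other gamma crystallins (*Cryga*, *Crygb* and *Crygc*) and 7 genes of small RNAs; the last 2 were *Hebp1* and *Slit3*. The opposite, replicate 1 above replicate 2 by that ratio in both genotypes, was seen in 9 genes. All 10 members, with *Cryab*, were highest in wild-type replicate 2 and lowest in *rd7* replicate 1, an order found in 5.46% of all genes tested. Between these extremes, *rd7* replicate 2 lay above wild-type replicate 1 in 9 members, all except *Crygs*.

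**Figure D2:**
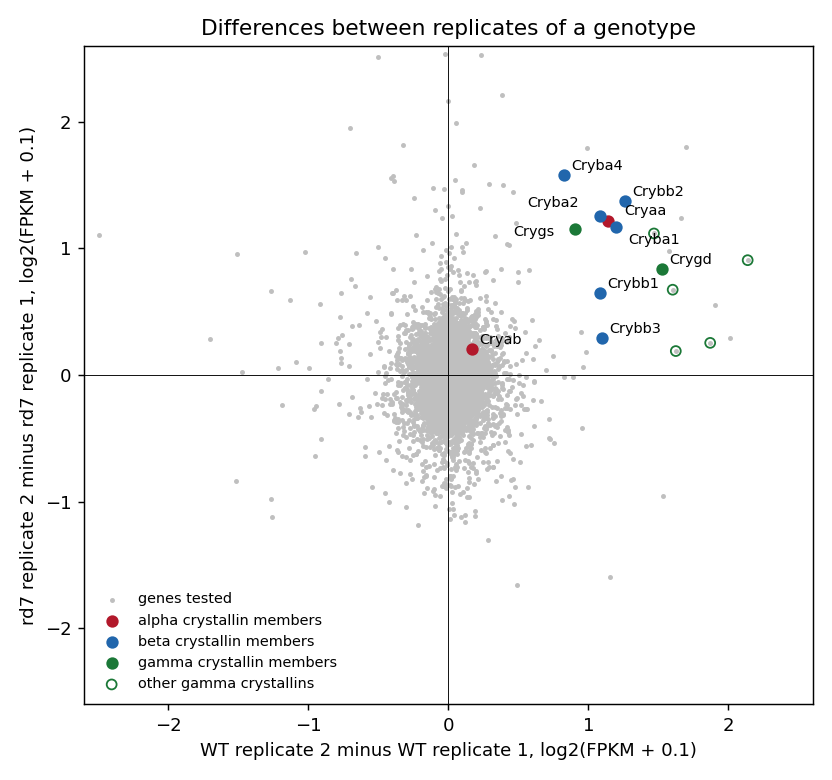
Difference between replicate 2 and replicate 1 on the log2(FPKM + 0.1) scale, in wild-type (horizontal) and *rd7* (vertical), for the genes tested (grey), the members (filled, by class) and 5 other gamma crystallins (open). Outside the axes lie 27 of the 12655 genes, and 9 members stand apart to the upper right while *Cryab* is within the cloud.

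The design asked how *rd7* differs from wild-type retina. For the crystallins, 0 members differed between genotypes beyond the spread between pools in the test without a block for the replicate number. On the log2(FPKM + 0.1) scale, limma with Benjamini-Hochberg adjustment over all genes tested called 0 of 10 members higher and 0 lower at an FDR of 5%, beside 37.6% of all genes called higher and 8.8% called lower. That split was 4755 against 1114 genes as deposited and 2492 against 2479 after the libraries were scaled by median ratios, with 0 members called in both cases. At an unadjusted p of 0.05 the count was also 0. With the replicate number entered as a block, 7 members were called lower, but the labels do not say whether libraries with the same number were handled together. All 10 log2 fold changes were below 0, with a median of -0.88 over the beta and gamma genes, while the median of all genes tested was 0.15. *Crygs* came closest to the threshold. Its FPKM averaged 3.07 ± 1.70 in *rd7* and 6.35 ± 2.77 in wild-type libraries (SD, n = 2 each), and its log2 fold change was -1.07 with a standard error of 0.44, a 95% interval from -2.15 to 0.01 and a limma adjusted p of 0.0943. *Cryaa* averaged 12.6 ± 7.18 in *rd7* and 22.0 ± 11.8 in wild-type (SD, n = 2 each), and its log2 fold change was -0.82 with a standard error of 0.49 and a limma adjusted p of 0.223. The intervals of *Cryaa* and of all 8 beta and gamma genes reached below -1, so that with 2 pools per genotype neither a fall of that size nor its absence was shown. *Cryab* was measured more tightly, with 25.0 ± 2.52 in *rd7* and 26.1 ± 2.14 in wild-type (SD, n = 2 each), and its log2 fold change was -0.06 with a standard error of 0.09, a 95% interval from -0.29 to 0.16 and a limma adjusted p of 0.599. The remaining 7 genes had log2 fold changes between -1.02 (*Cryba4*) and -0.40 (*Crybb1*), with adjusted p-values from limma between 0.168 and 0.429.

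The calls of 8 members depended on single libraries, while *Cryab* and *Crybb1* were not called with any library left out and 0 members were called higher. Without *rd7* replicate 2, 7 members were called lower (*Cryaa*, *Cryba1*, *Cryba2*, *Cryba4*, *Crybb2*, *Crygs* and *Crygd*), and the beta and gamma median was -1.40. Without wild-type replicate 1, *Crybb3* and *Crygd* were called lower and the median was -1.40. Without *rd7* replicate 1 or without wild-type replicate 2, 0 members were called and the median was -0.28 or -0.22. In these fits the lone library of a genotype is assumed to vary like the pair of the other.

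**Figure D3:**
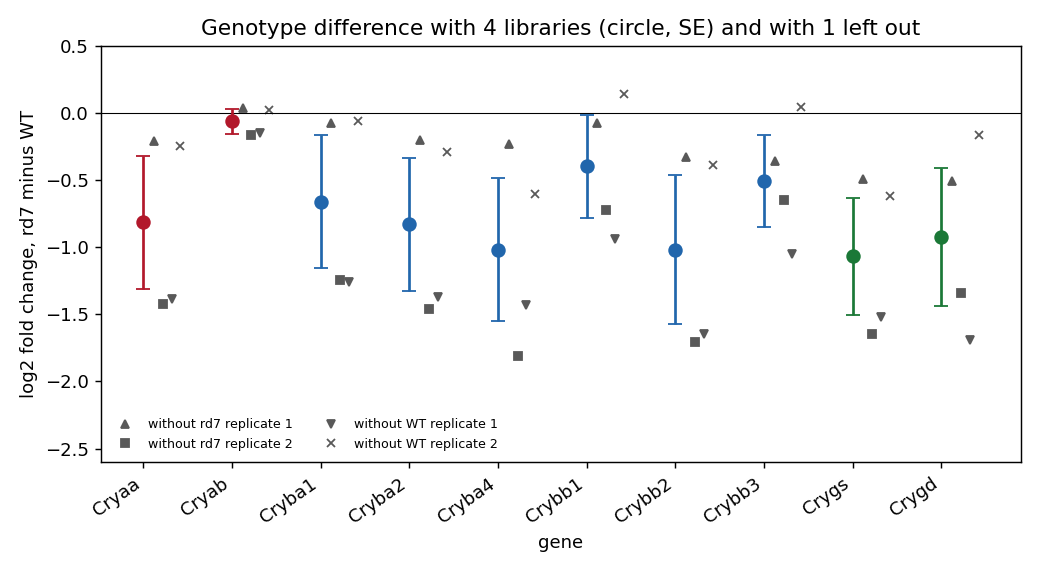
Log2 fold change (*rd7* minus wild-type, log2(FPKM + 0.1)) of each member with its standard error (circles, colored by class) and with 1 library left out (grey marks). *Cryab* stays between -0.17 and 0.04, while *Crybb2* moves between -1.71 and -0.33.

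Alpha against beta and gamma genes did not divide the members as the families do. *Cryaa* followed the beta and gamma genes: centred on the mean of its 4 libraries, its profile lay 0.04 (root mean square, log2) from their median profile, closer than any of the 8 genes the median was made from, which lay between 0.06 (*Cryba2*) and 0.33 (*Crybb3*). *Cryab* lay 0.60 from it. The summed FPKM of the 8 beta and gamma members was 19.1 and 38.7 in the *rd7* and 31.6 and 72.6 in the wild-type libraries, and *Cryaa* kept between 0.395 and 0.457 times that sum in all 4. The ratio of *Cryab* to the sum ranged from 0.380 in wild-type replicate 2 to 1.22 in *rd7* replicate 1. Within the sum, *Cryba1* made up between 17.9% and 21.2% and *Cryba2* between 6.39% and 7.86% in all libraries, whereas *Crybb3* made up 19.9% in *rd7* replicate 1 and between 12.0% and 12.9% in the others.

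The gamma crystallins that are no members showed how far this extended. *Crygb* had an FPKM of 5.27 and 8.47 in *rd7* and 7.16 and 21.9 in wild-type, and *Crygc* 2.50 and 5.55 against 5.29 and 14.8. *Cryge* and *Crygf* were nearly level in 3 libraries and higher in wild-type replicate 2, at 10.2 and 4.87. Of the 6 genes of this list, 5 were tested and 0 were called in either direction, with a median log2 fold change of -1.0, and *Crygn* was below the filter, at 0.115 to 0.521. All 6 were higher in replicate 2 than in replicate 1 of both genotypes, and the summed ratio was 3.22 in wild-type and 1.67 in *rd7*. The genes *Cryga* to *Crygf* share reads with each other, so their split is uncertain.

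Genes of other tissues were read beside the members, with lists whose choice is described with the processing. Of 12 lens fibre genes that are not crystallins, 10 had an FPKM below 1 in all libraries, the highest value being 0.768 for *Mip*, the water channel of lens fibres. *Dnase2b*, the nuclease of fibre cells, was listed at 0 in 3 libraries, and *Foxe3*, a factor of the lens epithelium, at 0 in all 4. The summed FPKM of the 10 was 2.58 and 3.03 in *rd7* and 2.26 and 3.69 in wild-type, a ratio of replicate 2 to 1 of 1.17 and 1.63. The largest differences between wild-type replicates 1 and 2 were those of *Grifin*, a galectin-related lens protein, at 0.218 and 0.611, *Bfsp1*, a filament protein, at 0.399 and 0.697, and *Lim2*, a fibre membrane protein, at 0.220 and 0.502. In *rd7* replicates 1 and 2, *Grifin* had 0.396 and 0.440, *Bfsp1* 0.443 and 0.471 and *Lim2* 0.153 and 0.262. *Bfsp2* and *Lgsn*, among others, went the other way there, from 0.648 to 0.551 and from 0.444 to 0.388. Of all 12 genes, 9 were higher in replicate 2 than in replicate 1 of wild-type and 7 of *rd7*. The summed FPKM of the 10 thus had its highest value in wild-type replicate 2, as the crystallins had, but its lowest in wild-type replicate 1. The other 2 of the list, *Hsf4* and *Tdrd7*, were tested and called lower in *rd7*, by 0.70 and 0.61 on the log2 scale. *Hsf4* had an FPKM of 1.05 and 1.68 in *rd7* and of 2.26 and 2.20 in wild-type libraries. It was lowest in *rd7* replicate 1, as the crystallins were, but nearly level between the wild-type libraries. *Tdrd7*, an RNA granule protein, had an FPKM of 53.1 and 49.5 in *rd7* and of 78.2 and 78.1 in wild-type libraries, which did not follow the crystallins. Of 10 genes of the lens epithelium and lens transcription factors, 7 were tested, and those 7 are also known from the retina. Of these, 4 were called higher and 1 lower, beside 37.6% and 8.8% of all genes tested.

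The blood list also moved with the libraries. The summed FPKM of its 7 loci was 76.7 and 161 in *rd7* and 271 and 317 in wild-type libraries. *Hbb-b1*, a beta globin, had 66.8 and 137 in *rd7* and 196 and 263 in wild-type. *Hbb-b2* was listed at 35.3 in wild-type replicate 1 and near 0 in the others, and reads of globin copies can be split between loci. The blood sum was thus higher in replicate 2 of each genotype, like the crystallins, but both wild-type libraries lay above both *rd7* libraries. The sum of the pigment epithelium list went another way, at 61.6 and 56.5 in *rd7* and 35.6 and 22.8 in wild-type libraries. It was lowest where the crystallins were highest. It was mostly *Ttr*, at 39.3 and 34.9 in *rd7* and 21.1 and 13.1 in wild-type. *Rgr* had 12.1 and 12.5 in *rd7* and 7.16 and 3.54 in wild-type. Not every gene did so: *Tyr* lay between 2.65 and 2.86, and *Best1* was highest in wild-type replicate 2, at 0.236. Of the 9 loci, 3 were higher in wild-type replicate 2 than in wild-type replicate 1. The sum of 8 Müller glia genes lay between 1309 and 1537 and was mostly *Glul*, the glutamine synthetase of these cells, at 904 to 1011. Single genes of that list moved within it: *Gfap*, a filament protein of reactive glia, had an FPKM of 10.3 and 28.1 in *rd7* replicates 1 and 2 and of 7.59 and 8.14 in wild-type, and was the 1 gene of 8 past a ratio of 1.5 in *rd7*. *Vim*, another glial filament gene, had 72.8 and 88.0 in *rd7* and 55.6 and 56.6 in wild-type. The sum of 8 ganglion cell genes lay between 680 and 762. Of 8 genes of ciliary body, iris and cornea, 2 were tested and 0 called, and their sums lay between 10.2 and 13.4. The part of lens, blood, glia or other tissue in the crystallin values was not tested.

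**Figure D4:**
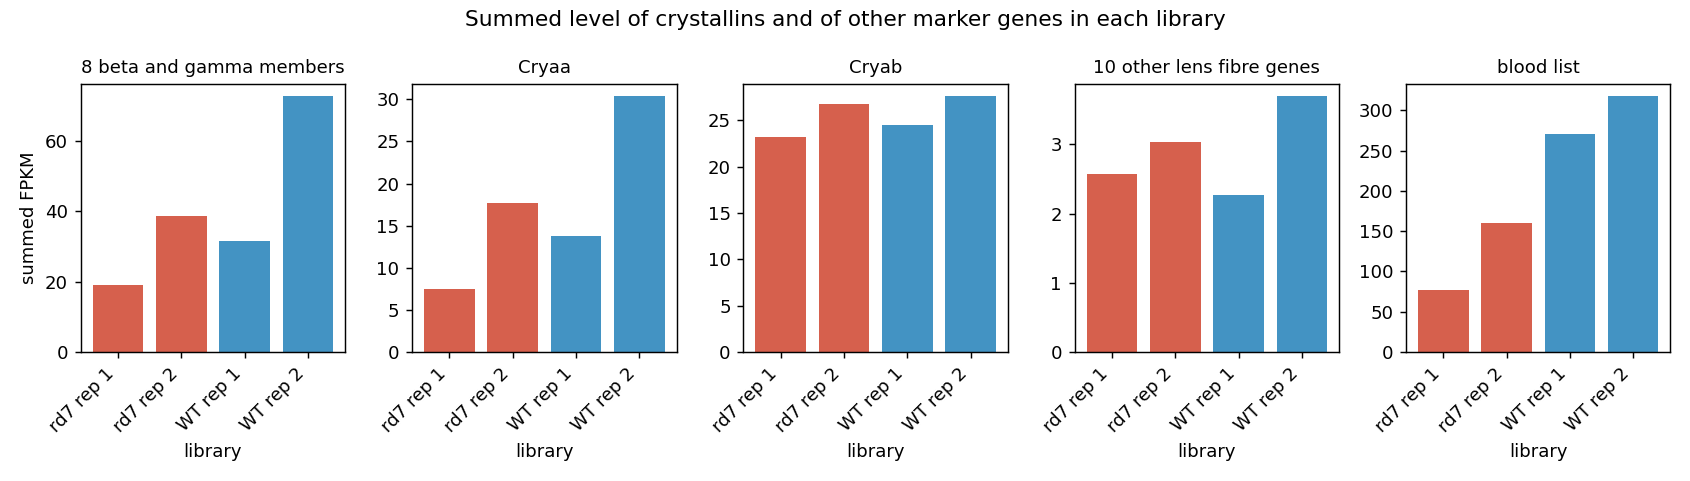
Summed FPKM in each library of the 8 beta and gamma members, *Cryaa*, *Cryab*, the 10 lens fibre genes below an FPKM of 1 and the blood list (bars from 0, *rd7* in red and wild-type in blue, scales differ). The first pair of panels has the same shape, with wild-type replicate 2 at 72.6 and 30.3.

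Relatives of the alpha crystallins in the small heat shock family were read beside *Cryab*. Of the 8 other small heat shock genes, 3 were tested and 0 were called, with a median log2 fold change of -0.21. *Hspb6*, a muscle and brain member of that family, had an FPKM of 53.2 and 68.2 in *rd7* and 70.0 and 69.7 in wild-type libraries, and *Hspb1* and *Hspb8* lay between 3.08 and 5.55. *Hspb2*, which lies 404 bases from *Cryab*, was under 0.70 in all libraries, far below its neighbour. Of 12 chaperones and heat shock factors, 5 were called higher and 4 lower, with a median of 0.16, near that of all genes. In a list of 6 further genes, which held enzymes and other proteins with a crystallin name and also *Crybg3* and *Aim1*, relatives of the beta and gamma crystallins, *Crym*, a thyroid hormone binding protein, was higher in *rd7*, at 70.1 and 77.6 against 42.3 and 40.0 (log2 fold change 0.84, adjusted p = 0.000971 from limma), and of the 5 tested 3 were called higher (*Crym*, *Cryz* and *Cryzl1*) and 0 lower. Over all genes tested, 37.6% were called higher and 8.8% lower. The log2 fold changes of *Cryz* and *Cryzl1* were 0.21 and 0.26, beside a median of 0.15 over all genes tested. *Crybg3* was not called, with an FPKM of 3.50 and 3.73 in *rd7* and of 2.96 and 3.02 in wild-type, and *Aim1* was below the filter.

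The genes most like the members were sought over the 4 libraries by the root mean square difference of centred log2 values, among 12645 other genes tested. Nearest to the beta and gamma median were *Crygb* (0.24), *Crygc* (0.25), *Hba-a1*, an alpha globin gene (0.25), *Mir9-2* (0.29) and *Snora3* (0.33). For *Cryaa* they were *Crygc* (0.24), *Hba-a1* (0.25) and *Crygb* (0.26). *Hba-a1* is listed at more than 1 locus, and this one had 5.82 and 13.5 in *rd7* and 14.9 and 20.9 in wild-type. The other entry had 3.38 and 9.36 in *rd7* and 22.5 and 31.0 in wild-type, with a larger gap between the genotypes. The profile of *Cryab* is nearly flat and was close to that of many genes, with *Mlycd*, *Taf12* and *Lhfpl5* at 0.01 each. Likeness over 4 libraries describes these values and no more.

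The nearest loci that are no crystallins are given beside the members. *U2af1*, nearest to *Cryaa* at 19191 bases, had an FPKM between 62.1 and 73.0, *Nufip2*, 766 bases from *Cryba1*, between 17.8 and 20.8, and *Tbccd1*, 1805 bases from *Crygs*, between 4.38 and 5.31. *2900026A02Rik*, 4741 bases from *Crybb3*, lay between 5.02 and 5.49, and *Fev*, nearest to *Cryba2*, did not exceed 0.048. *Cryab* lies on the same chromosome as the mutated gene, 9.23 Mb from *Nr2e3*.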

How the data were processed

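RNA-seq libraries of *rd7* (2) and wild-type (2) retinas were compared. The authors mapped single reads of 50 bases to mm9 with TopHat 1.4.1 and computed the deposited FPKM per gene and library, with a status, with Cufflinks 1.3.0. The annotation they used is not given in the sources used here. A table of the authors' own comparison by Cuffdiff (values pooled per genotype, fold changes, p-values and q-values) was not used. No count model was run on FPKM.

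Values were taken as log2(FPKM + 0.1), which understates the changes of low genes. The test took genes whose mean FPKM reached 1 and whose estimate succeeded in all libraries. It was made in R 4.3.3 by limma 3.58.1 (moderated by eBayes, with a trend, two-sided, Benjamini-Hochberg adjustment over all genes tested), without scaling or a block. The test was also run on simulated data in which each gene had the typical spread for its level. Most crystallins spread more than that, so the run does not show whether changes in them would be found. An exact permutation test of 2 against 2 libraries cannot give a p under 0.333 and was not used. Groups and replicate numbers came from the labels.

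The members and gene lists were chosen with earlier results of these data known. The genes named are the members, genes of the lists a sentence is about, *Nr2e3*, nearest loci, and the genes nearest in profile (5 for the beta and gamma median, 3 each for *Cryaa* and *Cryab*). *Hebp1* and *Slit3* were named after their values were seen. Lists are described by counts and medians.

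The FPKM of a single read was taken as the median of FPKM times kb between 0.02 and 0.036, over genes longer than 800 bp with 1 annotated transcript. Read numbers derived from it limit precision by counting error only. Coding identity came from global alignment of GENCODE transcripts of the same build. Windows and promoter letters were matched exactly in Python 3.11.15. As alternatives, each library was left out, the pseudocount was set to 1 or 0.01, the filter was dropped or raised to 5, and libraries were scaled by median ratios or by quantiles. The replicate number was entered as a block, the trend was dropped, the FDR was set to 1%, and GC content and length of exons, known for 96.9% of the genes tested, were corrected by splines.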

Additional observations from a re-analysis of the deposited data

How the results depend on the processing

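With 2 pools per genotype, the limits of these results are the spread between pools and, for the low beta genes, counting error. Under pseudocounts of 1 and 0.01, no filter, a filter at a mean FPKM of 5 (6 members left), both scalings, eBayes without a trend, an FDR of 1% and correction of GC content and length, 0 members were called and every log2 fold change stayed below 0. Over these settings and the block, the beta and gamma median ranged from -1.06 to -0.66 and that of the alpha pair from -0.59 to -0.39.

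The labels do not say whether libraries with the same number were handled together. Across all genes tested, the deviations of libraries with the same number had r = -0.0265. A value over all genes cannot decide whether a set of genes, such as the crystallins, varied with shared handling. With the replicate block, 7 members were called lower, as without *rd7* replicate 2, and 4508 genes were called higher and 1091 lower.

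The lens fibre median, -0.65 over 2 genes, was -0.11 over 12 genes without a filter, -0.80 after scaling by median ratios and -0.82 after quantile normalization. Counts of genes higher and lower were 2249 and 455 without a filter, 2492 and 2479 after scaling by median ratios, 2350 and 2404 after quantile normalization, 1523 and 1833 after correcting GC content and length, and 2582 and 446 at an FDR of 1%, against 4755 and 1114. By construction, both scalings and the correction of GC content and length take the overall median from 0.15 to near 0 (log2). A stricter FDR can only lower the counts. For the other moves the cause was not tested. With each library left out, genes higher ranged from 1293 to 5484, genes lower from 224 to 1601, members lower from 0 to 7 and members higher stayed at 0. The medians ranged from -1.40 to -0.22 (beta and gamma), from -0.80 to -0.08 (alpha) and from -0.78 to -0.52 (lens fibre). Log2 fold changes with each library left out ranged from -0.17 to 0.040 for *Cryab*, from -0.94 to 0.14 for *Crybb1* and from -1.05 to 0.044 for *Crybb3*. Above 0 were all of these without wild-type replicate 2, and *Cryab* also without *rd7* replicate 1. With a ratio of 2 in place of 1.5, set after the data were examined, replicate 2 exceeded replicate 1 in both genotypes in 4 members.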
